A study of Mus musculus with 24 samples.

Results

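The muscle ubiquitin ligase genes described here are Trim55, Trim54, Trim63, Trim7, Trim72 and Fbxo32, 6 of the 56923 gene identifiers counted. The 6 genes were chosen by name, with their measured levels across days and genotypes already known, so the values below are a description and whether a member passed the thresholds of the fit over all genes is given without being read as a finding. RNA was measured in cardiomyocyte (CM) nuclei of mice, sorted by the nuclear envelope marker PCM1 from pooled hearts. At P1 each pool held 15 hearts, at P7 it held 6 and at P14 it held 2. Control mice were XMLC2- Casp2 fl/fl, and Casp2-depleted mice were XMLC2+ Casp2 fl/fl, in which the Cre recombinase under XMLC2 acts in CMs. Both genotypes carry the floxed Casp2 alleles on a C57BL/6N background, both sexes were used, and the controls lack Cre, so Cre itself and the loss of Casp2 cannot be told apart. Each genotype had 4 libraries at each day, 24 in all. The study left out 3 for low quality, namely replicate 1 of the P1 controls, replicate 3 of the P14 controls and replicate 1 of the P14 Casp2-depleted group, and 21 libraries entered the fit.

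TRIM proteins carry a RING domain that binds an E2 enzyme and passes ubiquitin to a substrate. Trim63 (MuRF1), Trim55 (MuRF2) and Trim54 (MuRF3) form the MuRF family, whose proteins sit at the sarcomere and microtubules of striated muscle, bind one another and the giant protein titin, and mark sarcomere proteins for the proteasome. Fbxo32 encodes atrogin-1, also called MAFbx, the F-box subunit of an SCF ligase, and together with Trim63 it is a classical marker of muscle atrophy under the control of FOXO factors. Trim72 (MG53) takes part in repair of the plasma membrane, and Trim7 was named for its binding to glycogenin.

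The RefSeq promoter table held entries for 4 of the 6 genes, Trim63, Trim54, Trim7 and Trim72, on GRCm38.p6. The 250 bases before the start are shown for Trim63, Trim54 and one of 2 starts of Trim7, because these genes differed in their level at P14 as described below. All are on the plus strand, at chr4:134314870-134315119 for Trim63, chr5:31116362-31116611 for Trim54 and chr11:48837221-48837470 for Trim7. Capitals mark the FOXO core TGTTTAC, the E-box CANNTG and the TATA box TATAAA, searched on both strands. MEF2 and CArG motifs were searched as well and gave no match in these windows.

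Trim63: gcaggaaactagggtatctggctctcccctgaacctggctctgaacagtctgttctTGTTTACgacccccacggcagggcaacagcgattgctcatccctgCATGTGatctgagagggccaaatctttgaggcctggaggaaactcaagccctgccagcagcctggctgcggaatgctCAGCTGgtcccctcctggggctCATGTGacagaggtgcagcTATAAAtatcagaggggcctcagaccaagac
Trim54: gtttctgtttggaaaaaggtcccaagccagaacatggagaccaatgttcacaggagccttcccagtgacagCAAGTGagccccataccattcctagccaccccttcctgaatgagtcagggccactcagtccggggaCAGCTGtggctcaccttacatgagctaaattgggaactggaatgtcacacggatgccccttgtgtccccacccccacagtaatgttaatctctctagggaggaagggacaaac
Trim7: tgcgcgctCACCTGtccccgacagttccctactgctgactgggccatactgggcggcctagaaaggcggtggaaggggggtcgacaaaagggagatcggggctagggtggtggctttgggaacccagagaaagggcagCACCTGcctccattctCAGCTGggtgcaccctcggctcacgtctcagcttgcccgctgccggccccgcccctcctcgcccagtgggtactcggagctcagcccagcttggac

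Trim63 held 1 FOXO core, 194 to 188 bases before the start, 3 E-boxes and 1 TATA box, 31 to 26 bases before the start. Trim54 held 2 E-boxes, Trim7 held 3, and neither held the FOXO core or the TATA box in this window. The other start of Trim7 in the table, with its window at chr11:48825888-48826137, held none of the motifs searched, and the window shown is the one with matches. The FOXO core was found in 3.17% of the 32851 promoter entries of the same length, the TATA box in 12.4% and the E-box in 66.2%. A match describes letters and is not evidence of binding.

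The genes lie on different chromosomes of GRCm39. Trim55 is at chr3:19698571-19746771, Trim54 at chr5:31273911-31298846, Trim63 at chr4:134042393-134056948, Trim7 at chr11:48716967-48743234 and Trim72 at chr7:127603062-127611190, all on the plus strand. Fbxo32 is at chr15:58039275-58078741 on the minus strand. Reads were counted over the whole gene, introns included, and exons of the canonical transcript make up 5.91% of the span of Trim55, 9.93% of Trim63 and 18.7% of Fbxo32. Fbxo32 lies wholly inside the antisense long noncoding RNA gene Gm15943, and 869 bases of Trim54 overlap Mpv17 on the other strand.

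The 21 libraries held 891817 to 2924097 reads on genes. P14 libraries differed most from P7, with 7628 to 13651 genes detected in controls and 9428 to 12327 in Casp2-depleted CMs, against 14006 to 17770 over both genotypes at P7. Reads outside any gene made up 63.7 to 76.1% at P14 and 34.3 to 64.3% at P7. P1 libraries overlapped P14 on both measures, with 10981 to 15268 genes detected and 36.8 to 73.9% of reads outside genes. How far either difference bears on the values below was not tested beyond a fit with that share as a covariate. TMM factors were 0.57 to 0.98 at P7 and 1.11 to 1.57 at P14, so CPM by reads on genes alone differs from TMM-scaled CPM mainly between these days. CPM is used below for a gene's reads relative to the TMM-scaled library total, unless another scale is named. The targeted gene, Casp2, held 0 to 5 reads in P7 libraries of both genotypes, up to 2.61 CPM in controls and 2.38 CPM in Casp2-depleted CMs, and 0 reads in every P1 and P14 library, so its depletion could not be checked at this depth. All 8 CM markers had reads in every group. Their sum, by reads on genes alone, was 57825 to 87506 CPM at P7 and 12420 to 45922 CPM at P14 in controls, and 46487 to 67797 and 15561 to 27324 CPM in Casp2-depleted CMs, without overlap in either genotype. Of 11 skeletal muscle markers, Tnni2 was at 0 in every group and Acta1, Tnnt3 and Myh3 were at 0 in both P14 groups. Their sum, by reads on genes alone, was 46.8 to 97.4 CPM in P7 controls and 309.6 to 379.0 CPM in P14 controls, where 5 of the 11 had reads. In Casp2-depleted CMs the skeletal muscle sum was 43.9 to 124.0 CPM at P7 and 77.1 to 287.8 CPM at P14. Most single markers did not follow the sum. Of 9 tested, the fitted change from P7 to P14 was above 0 for 4 in each genotype. The median was -0.83 in controls and -1.37 in Casp2-depleted CMs. By this sum every P14 Casp2-depleted library of the fit was below the P14 controls, and the part of it in the results below was not tested. In the same way, in P7 and P14 controls, 8 fibroblast markers were at 78.9 to 213.4 and 173.6 to 328.2 CPM, 7 endothelial markers at 144.2 to 333.8 and 53.2 to 1115 CPM, 6 mural markers at 199.9 to 372.2 and 50.8 to 427.5 CPM, 7 macrophage markers at 42.03 to 84.4 and 44.9 to 302.9 CPM and 6 erythroid markers at 4.82 to 46.3 and 0 to 26.9 CPM, and the part of these was not tested either. In Casp2-depleted CMs the fibroblast sum was 112.8 to 180.6 CPM at P7 and 201.7 to 379.5 CPM at P14, and the endothelial sum 147.9 to 468.2 and 586.7 to 629.6 CPM, so both were higher in every P14 library than in every P7 library of that genotype. The single markers did not follow these sums. In the fit over that span, 4 of 8 fibroblast markers were above 0, with a median of 0.02. Of 7 endothelial markers 2 were above 0, with a median of -0.50, and Cdh5 and Kdr had no reads at P14. Where RNA of a gene was lower in such bulk nuclei, fewer nuclei expressing it and less RNA per nucleus cannot be told apart.

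Trim55 was at 120.4 to 1684 CPM at P1 and P7 and was low in all 6 P14 libraries of the fit. In P1 controls it was at 120.4, 652.9 and 580.0 CPM, and in P1 Casp2-depleted CMs at 1164, 154.4, 279.0 and 1684 CPM. In P7 controls it was at 910.7, 1224, 923.5 and 804.6 CPM, all above the P1 controls, and in P7 Casp2-depleted CMs at 1168, 731.8, 424.5 and 409.2 CPM. At P14 the control libraries were at 86.9, 40.5 and 58.5 CPM and the Casp2-depleted libraries at 81.8, 76.9 and 21.6 CPM. Every P14 library of the fit was thus below every P1 and P7 library, in both genotypes.

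The log2 fold change of Trim55 from P7 to P14 was -3.96 ± 0.56 (SE) in controls and -3.51 ± 0.55 in Casp2-depleted CMs, beside a median over all 20368 genes tested of -0.75 and -0.61. The median of the 8 CM markers over the same span was -2.47 in controls and -2.45 in Casp2-depleted CMs, with 2 of the 8 called lower in each genotype, and the part of this in the values of the members was not tested. From P1 to P14 it was -2.86 ± 0.55 in controls and -3.77 ± 0.56 in Casp2-depleted CMs. With the fraction of reads outside genes as a covariate, the value from P7 to P14 was -2.28 in controls and -1.62 in Casp2-depleted CMs and still passed the thresholds. The libraries left out by the study differed. By reads on genes alone, Trim55 was at 327.3 CPM in P14 control replicate 3 and 651.6 CPM in P14 Casp2-depleted replicate 1, against 33.8 to 112.5 CPM in the 6 P14 libraries kept. With all 24 libraries the values from P7 to P14 were -2.85 and -2.08 and passed in neither genotype. Limma-voom with TMM gave -3.99 ± 1.64 and -3.76 ± 1.68 and did not call Trim55 either.

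Trim63, the MuRF gene best known from atrophying muscle, kept reads in every library, as did Trim55. Trim63 was at 78.9, 278.2 and 231.2 CPM in P1 controls and at 198.1, 293.3, 181.5 and 290.4 CPM in P1 Casp2-depleted CMs. At P7 the controls were at 542.7, 565.4, 294.5 and 299.2 CPM and the Casp2-depleted libraries at 414.8, 475.7, 193.3 and 241.8 CPM. In P14 controls it was at 444.6, 245.3 and 475.2 CPM, within or below the range of P7 and overlapping it. In P14 Casp2-depleted CMs it was at 259.5, 87.6 and 41.9 CPM, and only replicate 2 reached the lowest control.

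From P7 to P14 the log2 fold change of Trim63 was -0.13 ± 0.55 in controls, and its sign depended on the scaling, with 0.17 under DESeq2 size factors and 0.49 under limma-voom with quantile normalization. In Casp2-depleted CMs it was -1.35 ± 0.57, and without P14 Casp2-depleted replicate 2 it was -2.35 ± 0.70 and passed the thresholds. With all 24 libraries it was -0.02, and with the fraction of reads outside genes as a covariate -0.52. Between genotypes at P14 it was -1.58 ± 0.60, with overlapping groups, and it did not pass the thresholds. This difference rests on the libraries kept. P14 control replicate 3 held 51.7 CPM by reads on genes alone and P14 Casp2-depleted replicate 1 held 1276 CPM, and with all 24 libraries the value was 0.04. The difference between genotypes in the change of Trim63 from P7 to P14 was -1.22 ± 0.78 and did not pass the threshold on adjusted p.

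Trim54, the remaining MuRF gene, was low at P1 and P7 and not detected in P14 controls. In P1 controls it was at 48.2, 9.16 and 73.9 CPM, and in P1 Casp2-depleted CMs at 60.3, 20.3, 37.9 and 8.0 CPM. In P7 controls it was at 44.4, 14.4, 49.7 and 6.75 CPM, and in P7 Casp2-depleted CMs at 50.0, 27.0, 25.5 and 19.7 CPM. Its spread within a group was thus wide at both days, and the groups of P1 and P7 overlapped in both genotypes.

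The 3 P14 control libraries held 0 reads of Trim54 together, against 190 in the 4 P7 controls, and taking the limit of 3 reads over the group it was at least 41.8-fold lower at P14 than at P7. Against P1 controls, with 186 reads, it was at least 58.1-fold lower. Of the P14 Casp2-depleted libraries, replicate 2 held 43 reads, or 30.3 CPM, and the other two held 0. Both P14 libraries left out also held 0. DESeq2 and limma-voom called Trim54 lower at P14 than at P7 and P1 in controls, and edgeR did not. Limits from a count of 0 cover counting error only. Mpv17, the gene on the other strand at one end of Trim54, held 222 reads in P7 controls and 0 in P14 controls.

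The MuRF genes can also be compared within a library, as shares of the reads on Trim63, Trim55 and Trim54 together, which no scaling between libraries enters. The share of Trim63 was 29.2% ± 2.90 (SD, n = 3) in P1 controls, 29.4% ± 5.61 (n = 4) in P7 controls and 86.2% ± 2.72 (n = 3) in P14 controls. By library it was 36.2, 31.3, 23.2 and 26.9% at P7 and 83.6, 85.8 and 89.0% at P14 in controls. In Casp2-depleted CMs it was 31.9% ± 23.0 (n = 4) at P1, 32.5% ± 5.93 (n = 4) at P7 and 63.0% ± 8.67 (n = 3) at P14.

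The P14 Casp2-depleted libraries were at 69.8, 53.3 and 66.0%, all above the P7 libraries and all below the P14 controls. The shallowest of them, replicate 4, rested on 97 MuRF reads, with a Wilson interval of 56.1 to 74.6%. At P1 the Casp2-depleted libraries ranged from 13.9 to 62.7%, so this group overlapped P14. Of the libraries left out, P14 control replicate 3 was at 13.6% and P14 Casp2-depleted replicate 1 at 66.2%, and the former lay below every library of the fit. P1 control replicate 1 was at 13.1%. No test is given for these shares.

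**Figure D1:**
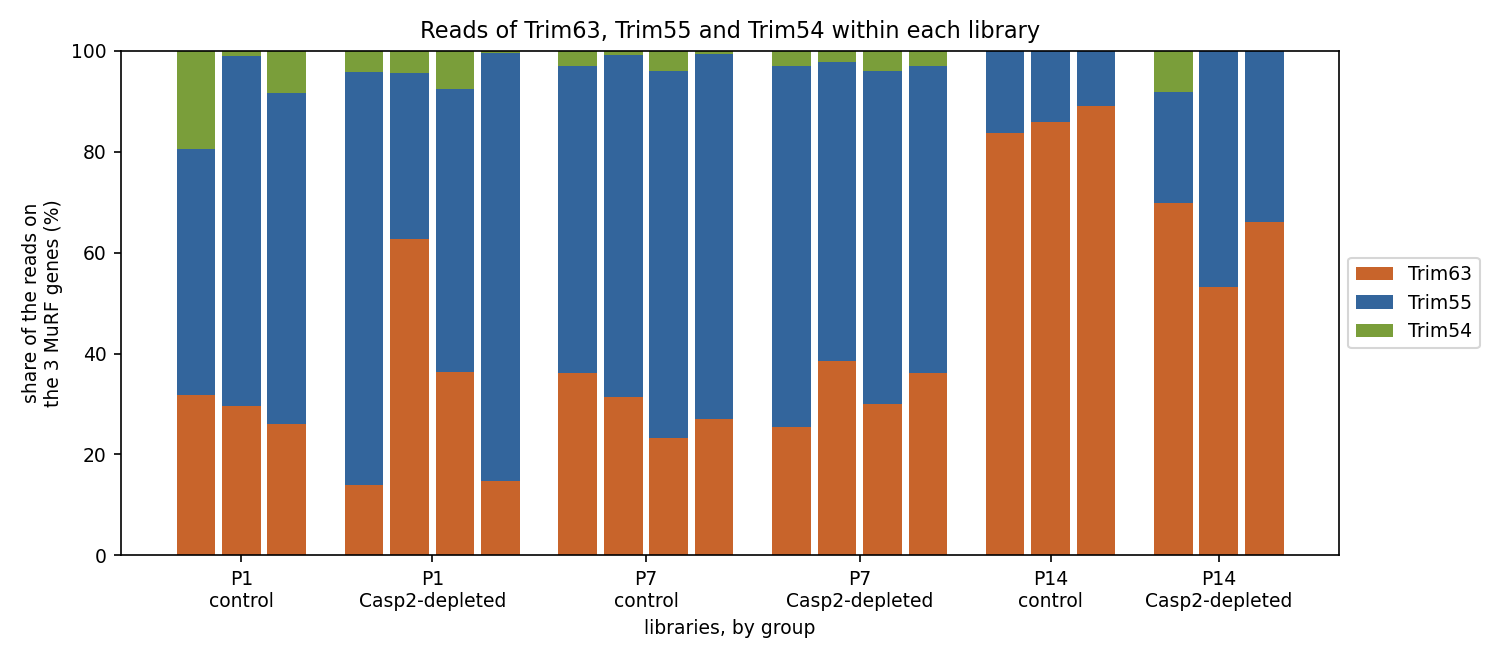
Shares of the reads on Trim63, Trim55 and Trim54 within each of the 21 libraries of the fit, in percent; each bar is a library. Trim63 took 83.6 to 89.0% in the P14 controls, 53.3 to 69.8% in the P14 Casp2-depleted libraries and 23.2 to 38.5% at P7.

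Fbxo32, the atrogin-1 gene, had its highest group mean in P7 controls and nearly no reads in P14 controls. In P1 controls it was at 4.21, 1.41 and 46.1 CPM, and in P1 Casp2-depleted CMs at 42.2, 7.02, 0 and 116.9 CPM. In P7 controls it was at 111.9, 108.03, 60.9 and 68.2 CPM, each above the P1 controls, and in P7 Casp2-depleted CMs at 114.4, 23.8, 31.6 and 59.1 CPM. The P14 controls held 1 read in all, against 548 in P7 controls, a ratio of 361-fold with an exact 95% counting interval of 64.6 to 14303. The P14 Casp2-depleted libraries were at 8.46, 0 and 30.8 CPM, so 2 of 3 were above all controls of that day and 1 was at 0.

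The log2 fold change of Fbxo32 from P7 to P14 was -8.05 ± 2.09 in controls and -2.12 ± 1.49 in Casp2-depleted CMs. The fitted size in controls depends on the prior count, since only 1 read remained. The difference between genotypes in this change was 5.93 ± 2.28, which rests on that 1 read in P14 controls and did not pass the threshold on adjusted p. Without P7 control replicate 2 the value in controls was -7.85, and without P14 control replicate 4 it was -7.60, and in neither case did it pass. With the fraction of reads outside genes as a covariate it was -5.72 and did not pass.

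Gm15943, which spans Fbxo32 on the opposite strand, kept its reads at P14. It held 107, 23 and 70 reads in the P14 controls, where Fbxo32 held 0, 1 and 0. Its mean was 65.5 ± 40.3 CPM (SD, n = 3) in P1 controls, 29.9 ± 6.71 CPM (n = 4) in P7 controls and 48.7 ± 29.4 CPM (n = 3) in P14 controls. Gm15943 was thus lowest at P7 by mean in controls, the day at which Fbxo32 was highest. Its P1 and P7 controls did not overlap, and its P14 controls overlapped both. The counts keep the strands apart, since 610 of 929 protein-coding genes that lie wholly inside a gene on the opposite strand held reads, against 37 of 380 inside a gene on the same strand.

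**Figure D2:**
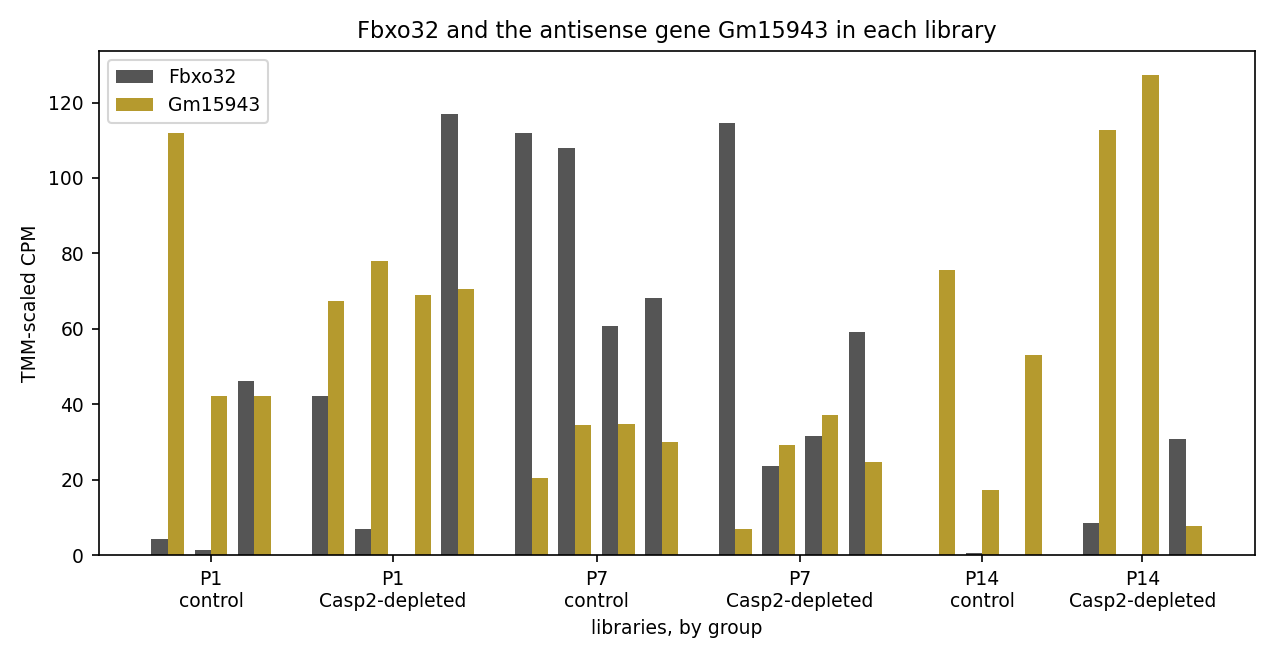
TMM-scaled CPM of Fbxo32 (grey) and of the antisense gene Gm15943 (yellow) in each of the 21 libraries; each pair of bars is a library. Fbxo32 is at 60.9 to 111.9 CPM in P7 controls and at 0 to 0.75 CPM in P14 controls, while Gm15943 is at 17.3 to 75.6 CPM in P14 controls.

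Trim7 was the member whose level differed most between P1 and P7. In P1 controls it was at 1.20, 16.9 and 11.9 CPM, and in P7 controls at 133.8, 195.2, 180.6 and 162.7 CPM, with no overlap. In Casp2-depleted CMs it was at 29.2, 5.61, 2.71 and 41.5 CPM at P1 and at 175.6, 127.6, 121.1 and 41.5 CPM at P7, where the lowest P7 library reached the highest P1 library. The log2 fold change was 4.07 ± 1.08 in controls and 2.55 ± 0.89 in Casp2-depleted CMs, and neither passed the thresholds. In P1 Casp2-depleted CMs replicates 1 and 4 were the highest for Trim7, Trim55 and Fbxo32 alike, and these libraries also had the lowest shares of reads on no gene of that group, 49.8 and 36.8%, against 68.2 and 70.6%. The part of that share in the order of these libraries was not tested.

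At P14 the libraries of Trim7 scattered. The controls were at 313.9, 28.5 and 0 CPM, a span wider than that of all other groups, and the Casp2-depleted libraries were at 85.3, 22.7 and 0 CPM. The log2 fold change from P7 to P14 was -0.56 ± 0.92 in controls and turned to 1.11 with the fraction of reads outside genes as a covariate. Without P14 control replicate 4 the value from P1 to P14 in controls was 4.09, against 3.51 ± 1.08 with it, and passed only then, and without P14 control replicate 1 it was 0.51. The libraries left out were higher still, with 697.9 CPM in P14 control replicate 3 and 629.4 CPM in P14 Casp2-depleted replicate 1 by reads on genes alone.

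Trim72 was close to absent. It held 6 reads in the 21 libraries, 4 in P7 control replicate 2 and 2 in P7 Casp2-depleted replicate 2, and 0 in all others, those left out included. A count of 0 allows 0.906 to 3.36 CPM by reads on genes alone, depending on the library. It did not pass the filter on low counts, so 5 of the 6 members were tested.

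**Figure D3:**
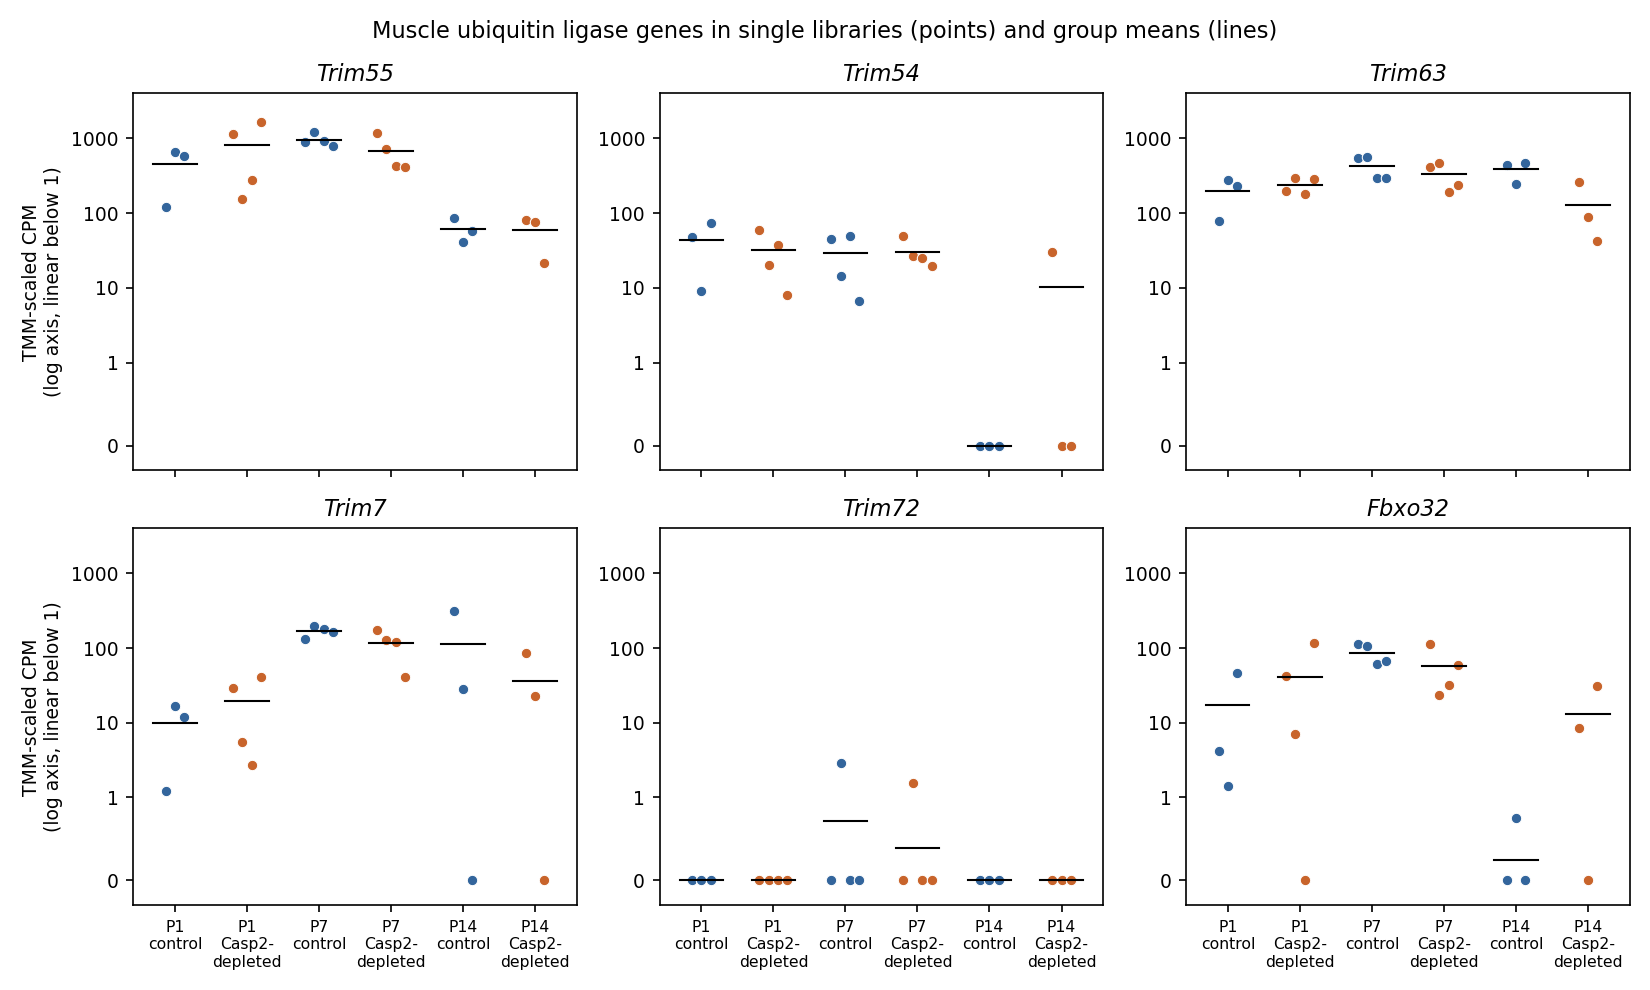
TMM-scaled CPM of the 6 genes (log axis, linear below 1) by group, with controls in blue and Casp2-depleted CMs in orange; points are libraries and lines are group means of 3 or 4 libraries. All P14 points of Trim55 lie below its P1 and P7 points, Trim54 is at 0 in the 3 P14 controls, and Trim63 and Trim55 have reads in every library.

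To compare levels between genes, CPM was divided by the gene's span in kb, because introns were counted. A 3′ method does not place reads evenly along a gene, so this scale is rough. In P7 controls the order was Trim63 at 29.2 ± 10.2 CPM per kb (SD, n = 4), Trim55 at 20.03 ± 3.74, Trim7 at 6.40 ± 1.01, Fbxo32 at 2.21 ± 0.67, Trim54 at 1.16 ± 0.86 and Trim72 at 0.089 ± 0.18 CPM per kb. Trim63 and Trim55 overlapped between libraries, as did Fbxo32 and Trim54, and the other neighbours in this order did not, apart from Trim72, which had reads in 1 library. In P1 controls Trim63 was at 13.5 ± 7.16 CPM per kb (n = 3) and Trim55 at 9.36 ± 5.99, with overlap, followed by Trim54 at 1.75 ± 1.31. In P14 controls Trim63 was at 26.7 ± 8.58 CPM per kb (n = 3), above every library of Trim7 at 4.34 ± 6.61 and of Trim55 at 1.29 ± 0.49. Per kb, Trim63 was thus the highest member by mean in controls at each day. This order depends on the division by span. Undivided, Trim55 was above Trim63 by mean in controls at P1, at 451.1 against 196.1 CPM. At P7 it was at 965.6 against 425.4 CPM, and at P14 it was lower, at 62.0 against 388.4 CPM. In P1 Casp2-depleted CMs Trim55 was at 17.0 ± 15.2 CPM per kb (n = 4) and Trim63 at 16.5 ± 4.07, and these overlapped.

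Called genes are those that edgeR placed under 0.05 after Benjamini-Hochberg adjustment and that moved by over 1 on the log2 scale. From P7 to P14 in controls, 2 of the 5 members tested were called lower, Trim55 and Fbxo32, beside 1.88% of all genes tested. From P1 to P14 in controls Trim55 was called, beside 0.319% of all genes. In Casp2-depleted CMs Trim55 was called from P7 to P14, beside 2.83%, and from P1 to P14, beside 1.94%. No member was called from P1 to P7, where 0.00982% of genes were called in controls and 0.0196% in Casp2-depleted CMs. Between genotypes no member was called at P1 or P7, where 0% of genes were called. An unadjusted p under 0.05 in the edgeR fit was reached by 1496 genes at P1 and 860 at P7. The study itself, using limma at the same thresholds, reported genes that differed between genotypes at P7, Cdkn1a and Foxm1 among them. The 0% at P7 belongs to the edgeR fit and does not show that the genotypes were alike. Why the study and the edgeR fit differed was not tested. At P14 no member was called between genotypes either, where 0.167% of genes were called. Since the members were chosen with these contrasts known, nothing is read from their counts. Of the genes called from P7 to P14 in controls, 380 of 382 were lower.

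Between genotypes, the log2 fold change of Trim55 was 0.86 ± 0.49 at P1, -0.50 ± 0.44 at P7 and -0.04 ± 0.52 at P14. At P7 the 5 members tested lay between -0.61 and 0.08, with overlapping groups for each. At P14 Fbxo32 was at 5.32 ± 1.94 and Trim54 at 6.97 ± 2.61, each from 1 or 0 reads in controls and from 2 and 1 Casp2-depleted libraries with reads. DESeq2 called both, and the edgeR fit called neither. For Trim54 the value rests on P14 Casp2-depleted replicate 2, the 1 library of that day with its reads, and without it both groups were at 0 reads. Every pair of genotype groups overlapped for every member tested at P1, P7 and P14. How often these groups overlap over all genes tested was not counted, so nothing is read from this.

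**Figure D4:**
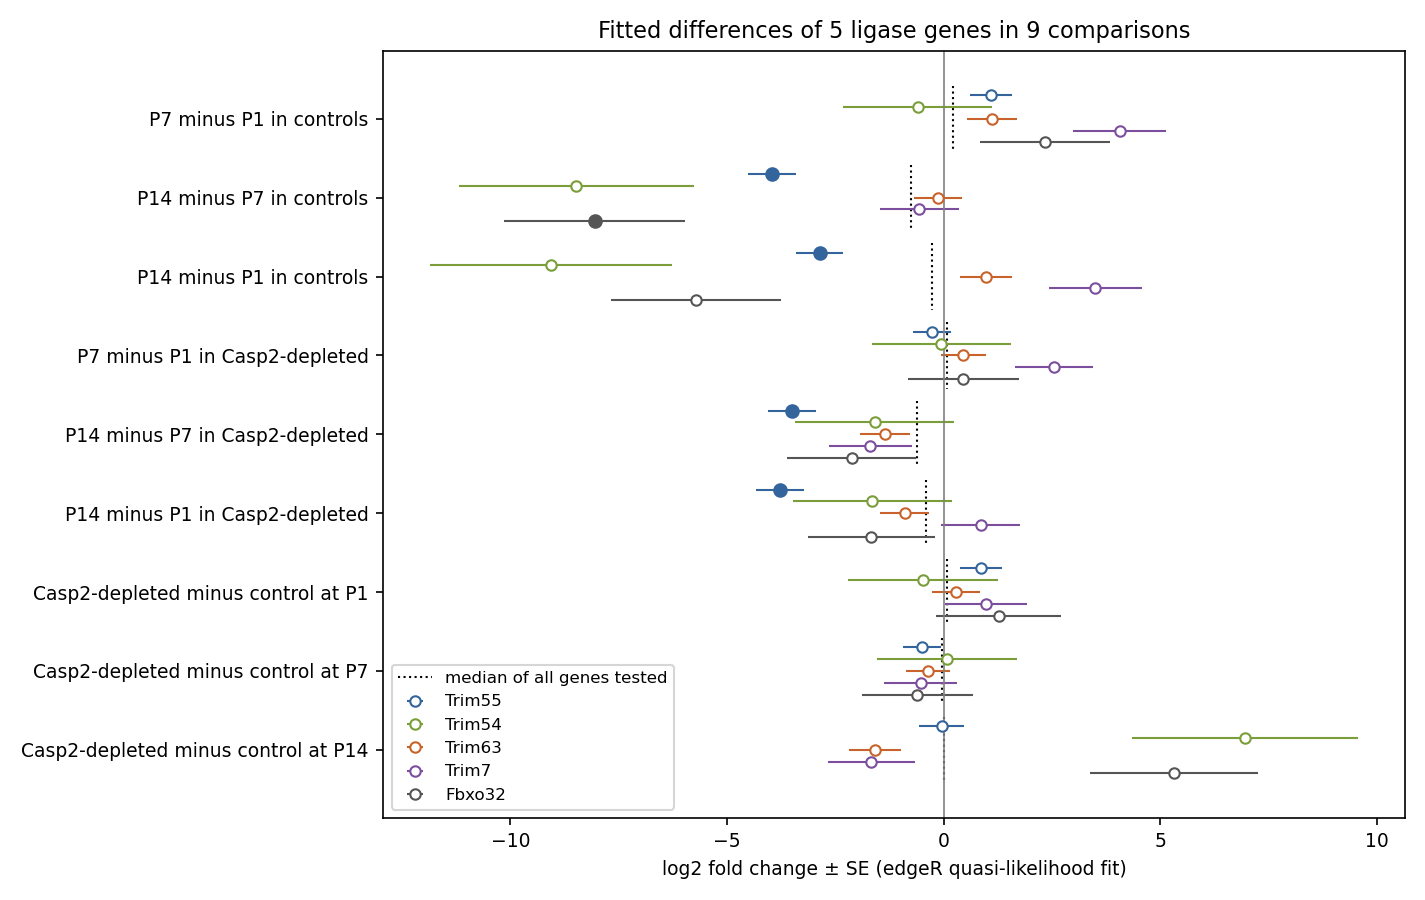
Log2 fold change with SE from the edgeR fit for 5 members in the 9 comparisons; filled points passed the thresholds and dotted lines mark the median of all genes tested. Trim55 lies between -2.86 and -3.96 in the 4 comparisons of P14 with an earlier day, while Trim63 lies between -1.35 and 0.99 in them.

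The genes whose log2 CPM followed a member most closely over the 21 libraries were taken from 8231 genes with a mean of at least 20 CPM. For Trim55 they were Mef2a (Pearson r = 0.96), a muscle transcription factor, Msi2 (0.95), an RNA-binding protein, and Slc8a1 (0.95), the cardiac sodium-calcium exchanger. For Trim63 they were Ank3 (0.89), Zfp710 (0.86) and Nav2 (0.86). For Trim7 they were Zfp62 (0.91), Flna (0.90) and Fbxo40 (0.88), an F-box gene of muscle. For Trim54 they were Tnni1 (0.86), the slow skeletal troponin I of the early heart, Timp3 (0.85) and Bnip3l (0.85), and for Fbxo32 they were Ska2 (0.90), Atxn7l1 (0.88) and Cep97 (0.88). All points share day, depth and detection between genes, so these are descriptions without a test. Ranked by Spearman's rho, Msi2 led for Trim55, Zfp710 for Trim63, Fbxo40 for Trim7, Ints6l for Trim54 and Nipsnap2 for Fbxo32.

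The other genes of the pathway were taken as 5 lists with 180 genes tested. These lists were chosen with earlier results of these data known, so their counts and adjusted p are given as a description. In controls from P7 to P14, 11 of them were called and all were lower, and in Casp2-depleted CMs 14 were called and all were lower. Over all genes tested 1.88% were called in controls, 380 of 382 of them lower, and 2.83% in Casp2-depleted CMs, 575 of 577 of them lower, so the direction is that of nearly all called genes. With the fraction of reads outside genes as a covariate, 0 were called in controls and 1 in Casp2-depleted CMs. Without P14 control replicate 1 these counts were 18 and 23, and without P7 control replicate 2 the count in controls was 5. From P1 to P14, 1 was called in controls, beside 0.319% of all genes, and 12 in Casp2-depleted CMs, beside 1.94%. From P1 to P7 and between genotypes at P1 and P7 none was called by edgeR, beside at most 0.0196% of all genes. Between genotypes at P14, 1 was called, beside 0.167%. The median of the 8 CM markers from P7 to P14 was -2.47 in controls and -2.45 in Casp2-depleted CMs. The part of this in the counts and values of these lists was not tested.

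Of 50 other muscle ubiquitin ligases and their partners, 3 were called lower from P7 to P14 in controls, beside 1.88% of all genes. In Casp2-depleted CMs 5 were called lower, beside 2.83%. The fitted change was above 0 for 8 of the 50 in controls and 7 in Casp2-depleted CMs. Rnf207, a RING gene tied to cardiac repolarization, was at 162.7 ± 103.8 CPM (SD, n = 4) in P7 controls and at 7.09 ± 12.3 CPM (n = 3) in P14 controls, with a log2 fold change of -4.51 ± 1.18 (edgeR adjusted p = 0.0123), and in Casp2-depleted CMs it was -5.99 ± 1.30 (adjusted p = 0.000454). Huwe1, a large HECT ligase, changed by -2.41 ± 0.60 in controls (adjusted p = 0.00608) and by -2.07 ± 0.59 in Casp2-depleted CMs (adjusted p = 0.0208). Asb18 and Ubr4 were called lower in Casp2-depleted CMs, with log2 fold changes of -3.52 and -3.44. From P1 to P14, 3 genes of the list were called lower in Casp2-depleted CMs, beside 1.94% of all genes. Rnf207 and Ubr2 were among them, with log2 fold changes of -5.53 and -2.28. The median over the 50 was -1.52 from P7 to P14 in controls, beside -0.75 over all genes and -2.47 over the 8 CM markers.

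The list of 42 substrates and partners of these ligases includes the CM markers Ttn, Myh6, Mybpc3, Tnni3, Tnnt2 and Actn2. Its median from P7 to P14 was -1.79 in controls, beside -2.47 over the 8 CM markers, and -2.16 beside -2.45 in Casp2-depleted CMs. The fitted change was above 0 for 10 of the 42 in controls and 4 in Casp2-depleted CMs. Of the 42, 5 were called lower in controls, beside 1.88% of all genes called, and 7 in Casp2-depleted CMs, beside 2.83%. Those in controls were Des, the intermediate filament of muscle, with 358 reads in P7 and 1 read in P14 controls, Anxa6, Tnnt2, Myom1 and Myl2. Tnnt2, cardiac troponin T, was at 16965 ± 5200 CPM (n = 4) in P7 and 2994 ± 1321 CPM (n = 3) in P14 controls, a log2 fold change of -2.50 ± 0.32 (edgeR adjusted p = 3.8e-11). Myom1, an M-band protein, changed by -2.46 ± 0.44 (adjusted p = 2.57e-05) and Myl2, the ventricular light chain, by -2.16 ± 0.43 (adjusted p = 0.000144). Tnnt2 was also the list's 1 called gene from P1 to P14 in controls, at -2.33 ± 0.33.

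In Casp2-depleted CMs the largest changes among the called genes of this list from P7 to P14 were those of Myoz2, Prkaa2, Myom1, Tnnt2 and Insr. Myoz2 is a Z-disc protein, Prkaa2 a catalytic subunit of AMP kinase and Insr the insulin receptor. Myoz2 held 434 reads at P7 and 0 at P14 there and was at least 104-fold lower. It was also the list's 1 gene called between genotypes at P14 (edgeR adjusted p = 0.0299), with 0 reads in Casp2-depleted CMs and 187 in controls, all of them in 1 control library. No gene of the 5 lists was called between genotypes at P14 with all 24 libraries, with filterByExpr, with the fraction of reads outside genes as a covariate, or without any 1 of 9 libraries, 7 of them from P1 or P7. From P1 to P14 in Casp2-depleted CMs 7 genes of the list were called lower, beside 1.94% of all genes, led by Myoz2, Prkaa2, Myom1, Tnnt2 and Insr.

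Of 35 upstream regulators tested, 2 were called lower from P7 to P14 in each genotype, beside 1.88% of all genes in controls and 2.83% in Casp2-depleted CMs. The fitted change was above 0 for 8 of the 35 in controls and 7 in Casp2-depleted CMs. The called genes were Mef2a and Mef2d, MADS-box factors of muscle genes. Mef2a was at 329.5 ± 110.5 CPM (n = 4) in P7 and 35.7 ± 11.2 CPM (n = 3) in P14 controls, with a log2 fold change of -3.20 ± 0.69 (edgeR adjusted p = 0.000814), and Mef2d changed by -2.43 ± 0.64 (adjusted p = 0.014). In Casp2-depleted CMs Mef2a and Mef2d were also called lower from P1 to P14, beside 1.94% of all genes, with log2 fold changes of -3.44 and -2.37. No FOXO gene of this list was called in any of the 9 comparisons, where 0 to 2.83% of all genes were called. Of 28 autophagy and lysosome genes 1 was called, Atg13, from P7 to P14 in controls, beside 1.88% of all genes. Atg13 held 164 reads in P7 and 0 in P14 controls and was at least 36.1-fold lower. None of 25 tested E2 enzymes and SCF partners was called in any of the 9 comparisons, beside the same 0 to 2.83% of all genes. Of 48 other TRIM genes tested, 1 was called from P7 to P14 in Casp2-depleted CMs, beside 2.83% of all genes, so this count is near that share. It was Trim8, with a change of -4.36 ± 1.28 (edgeR adjusted p = 0.0278). The median of these TRIM genes from P7 to P14 in controls was -0.75, as over all genes.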

How the data were processed

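Libraries were made with a low-input 3′ kit (QuantSeq FWD) from RNA of sorted CM nuclei. Per the methods of the study, the authors checked reads with FastQC 0.11.8, trimmed them with cutadapt 4.0, aligned them with STAR 2.6.1e to GRCm39 (Ensembl 108) and counted them with HTSeq 2.0.3 over full genes. The deposited counts are whole reads per gene without normalization. Reads on no gene, 34.3 to 76.1% of uniquely placed reads, stayed out of library sizes. Gene names came from GENCODE vM39.

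The 6 members, the gene lists and the rule for named genes were chosen with earlier results of these data known. The rule names, per comparison and list, up to 5 called genes with the largest change, the 3 genes most like each member, and genes overlapping a member. Some results under this rule are not reported here.

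Counts were fitted with edgeR 4.0.16 in R 4.3.3 (TMM, 6 group means, robust quasi-likelihood F-test, 15 residual degrees of freedom) on 20368 genes, each with 10 or more reads over the libraries and present in at least 3 of them. SE is the log2 fold change over the root of F. Log2 CPM used a prior count of 2. The steps were also run on simulated counts with large changes set in the P14 controls. All groups there shared the same gene means otherwise, so the low detection of the P14 libraries was not covered. Alternatives used limma 3.58.1 and DESeq2 1.42.0. A group at 0 was set to a limit of 3 reads. Intervals are 95%, Wilson for shares and exact for ratios of reads.

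The file names in the labels call the replicate number a batch, so pairing of same-numbered libraries was checked. The main fit held no term for it, and the replicate block was an alternative only. Deviations from group means of same-numbered libraries of the 2 genotypes at one day correlated at -0.059 to 0.19 (9 pairs, 1 over 0.1). Pools are separate per the labels, but whether pools share litters is not given in the sources used here.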

Additional observations from a re-analysis of the deposited data

Results flagged for a closer look

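Trim72 stood out in 2 of 17 member-by-group sets with 4 libraries and a spread above 0 that were examined for a library far from the rest, at 2.88 CPM in P7 control replicate 2 and 1.59 CPM in P7 Casp2-depleted replicate 2, each from a few reads with the other libraries at 0. With the other libraries at 0, any library with reads is flagged, so a chance rate of about 1 in 20 groups does not hold for these sets.

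The 3 libraries that did not enter the fit held members above the highest control library of the same day, all by reads on genes alone. P1 control replicate 1 held 1783 CPM of Trim55, 275.2 CPM of Trim63, 25.7 CPM of Trim7 and 53.5 CPM of Fbxo32. P14 control replicate 3 held 327.3 CPM of Trim55 and 697.9 CPM of Trim7. P14 Casp2-depleted replicate 1 held 651.6 CPM of Trim55, 1276 CPM of Trim63 and 629.4 CPM of Trim7. The detected genes in these libraries numbered 11707, 2049 and 4285, in the same order, and the part of this in their levels was not tested.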

How the results depend on the processing

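Limits come first from the P14 libraries, with 3 per genotype, few detected genes and several members at 0 or 1 read, so absence of a member there was not detectable below the limit of 3 reads. The cause of the changes below was not tested.

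Members called from P7 to P14 in controls (2), from P1 to P14 in controls (1) and over the same spans in Casp2-depleted CMs (1 and 1) numbered 0 in each with all 24 libraries. Limma-voom, with TMM or with quantile normalization, called 0 in both Casp2-depleted spans, and in controls it called Trim54 and Fbxo32 from P7 to P14 and Trim54 from P1 to P14, and not Trim55. With the fraction of reads outside genes as a covariate, 1 was called from P7 to P14 in controls. DESeq2 called 2 from P1 to P14 in controls and 2 between genotypes at P14, where edgeR called 0. Leaving out each library in turn gave 1 to 2, 1 to 2, 1 to 2 and 1 to 1 in these spans. The counts that moved were those without replicate 2 of the P7 controls, replicate 4 of the P14 controls or replicate 2 of the P14 Casp2-depleted group, where Trim63 was called in addition.

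Pathway genes called from P7 to P14 in controls (11), from P1 to P14 in controls (1), from P7 to P14 in Casp2-depleted CMs (14), from P1 to P14 there (12) and between genotypes at P14 (1) changed more. All 24 libraries gave 1, 0, 7, 3 and 0. That covariate gave 0, 0, 1, 0 and 0. DESeq2 gave 23, 7, 29, 24 and 9. DESeq2 size factors in edgeR gave 6 in the first, and limma-voom with TMM gave 17 and 2 in the first 2. The fit without robust, added after the data had been seen, gave 2 from P1 to P14 in controls, 22 from P7 to P14 in Casp2-depleted CMs and 3 from P1 to P7 in controls, where the count was 0. Quantile normalization gave 2 between genotypes at P1, and filterByExpr gave 0 between genotypes at P14. Leaving out each library gave 5 to 18, 1 to 4, 10 to 23, 5 to 18 and 0 to 7 in these comparisons, and 0 to 1 from P1 to P7 in controls. The highest of these were without P14 control replicate 1, and without P14 Casp2-depleted replicate 2 between genotypes at P14. The lowest from P7 to P14 were without replicate 2 of the P7 controls and replicate 3 of the P14 Casp2-depleted group, and from P1 to P14 in Casp2-depleted CMs without replicate 4 of the latter.

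With the replicate block, members called were 2, 1, 1 and 1 and pathway genes 13, 1, 16 and 14, and the pairing changed no call of a member. Of 450 log2 fold changes of members under alternatives other than leaving out a library, 428 stayed on their side of the thresholds, 14 no longer passed and 8 newly passed. No member's called value changed sign. Of 36 group means, 34 moved by less than 1 SD with CPM by reads on genes alone, and Trim55 and Trim7 in P7 controls moved more, to 713.9 and 125.1 CPM.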
